A study of Mus musculus with 6 samples.

Results

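The haem synthesis pathway was followed through 9 genes, picked by symbol among the 45706 Ensembl gene rows of a raw count table of mouse bone marrow. In pathway order they are Alas1 and Alas2, Alad, Uros, Urod, Cpox, Ppox and Fech, which encode enzymes, and Slc25a38, which encodes a mitochondrial carrier. Each symbol mapped to a single row, and all 9 genes passed the filter on low counts. The libraries were 4 from marrow cultures given medium conditioned by VpR clear cell renal cell carcinoma (ccRCC) cells, 1 each for the lines VpR83, VpR99, VpR126 and VpR2020. The other 2 were labelled bone marrow with control medium. The 4 lines stood in as replicates of conditioned medium. The labels do not tie libraries to animals or cultures, so the p-values reflect only how these libraries vary, which may be technical in part. The sample labels name control medium, whereas the design text of the series compares with freshly isolated marrow, so medium and time in culture cannot be told apart. The column headers of the controls name bone marrow and no medium, so whether the controls were cultured is not settled. Strain, age and culture time are not given. The columns of VpR83, VpR99 and VpR126 also carry the tags Ctrl, T1 and LT2, which the labels do not explain.

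Haem is iron held in a porphyrin ring. Its synthesis starts in the mitochondrion, where aminolevulinate synthase joins glycine to succinyl-CoA, passes through the cytosol, and ends in the mitochondrion with the insertion of iron. The first step has a form found in most cells, ALAS1, whose gene is repressed by haem in liver, and an erythroid form, ALAS2, whose gene lies on the X chromosome and is a target of the transcription factor GATA1. The later enzymes are made in most cells and are raised in erythroblasts, which make most of the haem of the body in the marrow.

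Alas2 was almost absent under conditioned medium, Alas1 was not, and the 7 remaining genes were lower by 2.03-fold to 11.8-fold. Of the 9 genes, 8 were called lower and 0 higher, where a call is an adjusted p below 0.05 in edgeR's quasi-likelihood test over all 15141 genes tested. Among all genes tested, 19.7% were called lower and 22.5% higher. The median log2 fold change was -1.84 over the 9 genes, beside -0.01 over all genes tested. In 8 of the 9 genes, all 4 conditioned libraries lay below both controls, which held for 33.3% of all genes tested, and in 0 did all 4 lie above both, which held for 32.0%.

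**Figure D1:**
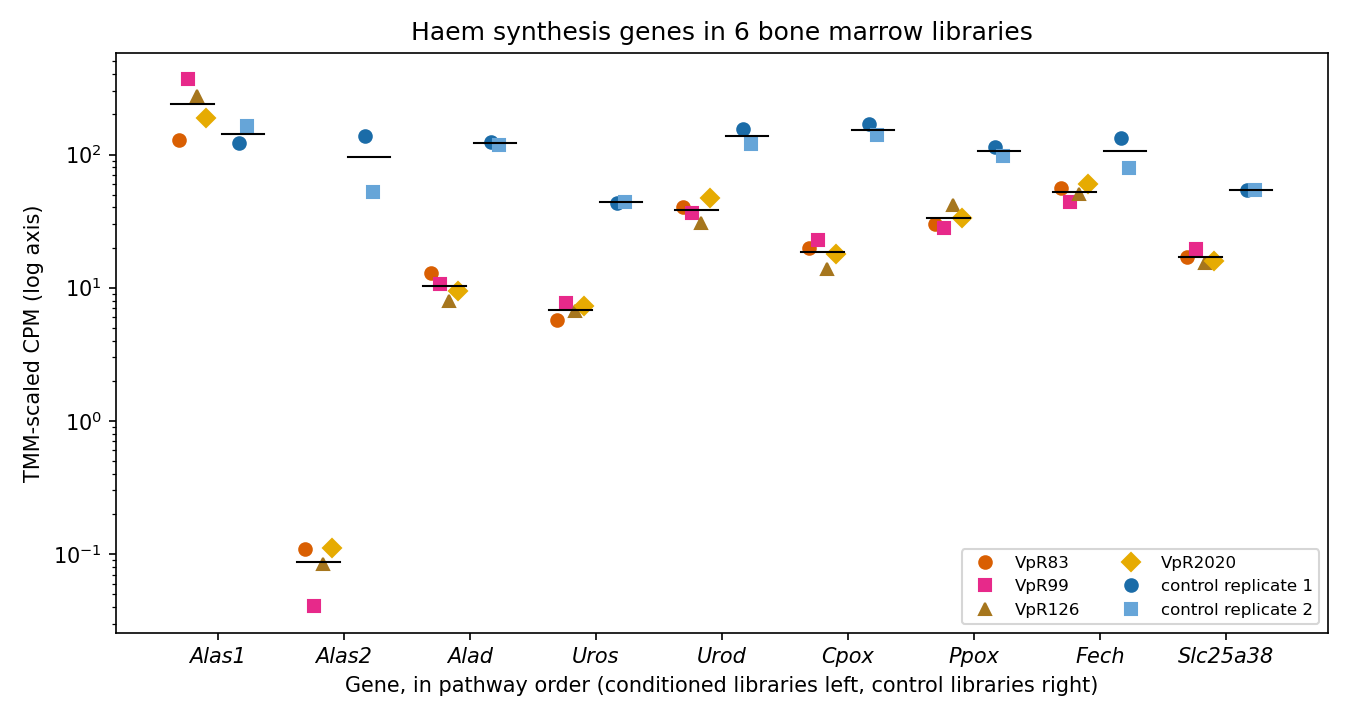
TMM-scaled CPM (log axis) of the 9 haem synthesis genes in each library, the 4 conditioned libraries left and the 2 control libraries right of each gene, with a bar at the group mean. Alas2 lies near 0.1 CPM in the conditioned libraries and at 52.0 and 139 CPM in the controls, and Alas1 is the only gene whose groups overlap.

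Sequence before the start of the gene is shown for Alas2 and Cpox, the members with the letters of a GATA motif in the window nearest their annotated start. For Alas1 a stretch with the motif letters of the transcription factor NRF1 is shown, which lies upstream of the principal start but inside the annotated gene, downstream of another RefSeq start. The sequences are RefSeq's, build GRCm38.p6, each 5′ to 3′ on the strand of the gene, and capitals mark the motif letters. The Alas2 stretch is chrX:150547167-150547374 (plus strand), the Cpox stretch chr16:58669958-58670207 (plus strand) and the Alas1 stretch chr9:106247906-106247935 (minus strand).
Alas2: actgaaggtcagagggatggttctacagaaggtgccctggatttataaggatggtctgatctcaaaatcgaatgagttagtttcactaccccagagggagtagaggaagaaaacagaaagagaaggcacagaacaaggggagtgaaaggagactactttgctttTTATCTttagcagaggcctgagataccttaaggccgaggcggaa
Cpox: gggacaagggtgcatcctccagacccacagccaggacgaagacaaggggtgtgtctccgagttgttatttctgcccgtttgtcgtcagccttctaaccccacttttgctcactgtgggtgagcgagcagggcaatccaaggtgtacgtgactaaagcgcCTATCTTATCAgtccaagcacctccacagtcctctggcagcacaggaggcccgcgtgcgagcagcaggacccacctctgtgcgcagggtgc
Alas1: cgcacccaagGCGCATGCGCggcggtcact

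Windows from 250 bases before to 50 after a RefSeq start were searched on both strands for 4 GATA motifs, of which neighbouring matches may overlap. The first was AGATAA, the second was TGATAA, the third was AGATAG and the fourth was TGATAG. The 8 members with such a window had 11 windows between them. The single Alas2 window held 1 match, the single Cpox window 3 (2 of them overlapping, shown above), and the farther of the Uros starts 2, while the windows of Alas1, Alad, Urod, Ppox and Slc25a38 held none. Of all 32851 windows, 29.8% held at least 1 match. The NRF1 motif, in a longer or a shorter form, stood in both Alas1 windows, which share the same bases, and in the nearer of the Uros windows, beside 6.22% of all windows. A match describes letters and was not tested as a binding site.

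The erythroid synthase gene Alas2 (ENSMUSG00000025270, chromosome X, 150547375 to 150570638, plus strand) had 0.110, 0.0405, 0.0845 and 0.111 CPM under VpR83, VpR99, VpR126 and VpR2020 medium, against 139 and 52.0 CPM in control replicates 1 and 2. CPM are TMM-scaled read counts relative to the library total throughout. All 4 conditioned libraries lay far below both controls, and the controls themselves were apart. The conditioned values rest on 3, 5, 2 and 2 reads, 12 in all, against 5273 reads in the controls. The log2 fold change of Alas2 was -10.37 ± 0.57 (SE, adjusted p = 0.00023), with a 95% interval of -11.75 to -9.00, and 23 of the 15141 genes tested had a log2 fold change at or below it. The pooled reads gave a level 1649-fold lower, with an exact 95% counting interval of 943 to 3193. VpR99, the deepest library and the lowest in Alas2, weighed most in this pool, and the interval leaves out variation between libraries. With equal weight per library, the conditioned mean was 0.0905% of the control mean. Without control replicate 1, the higher control, the log2 fold change was -9.43 (adjusted p = 0.0022, range 4.4e-48 to 0.0022 over the alternatives). Alas2 shares 311 of its 2403 exonic bases with Apex2 on the opposite strand, and since the strand setting of the counting is not given, the source of so few reads cannot be settled.

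In bulk RNA, fewer cells of a type and less RNA per cell cannot be told apart. The markers of erythroid cells moved with Alas2: of 17 measured (Ahsp was not analysed here), 17 were called lower, and their summed level was 1.88 to 14.1 CPM in the conditioned libraries, against 6541 and 3115 CPM in control replicates 1 and 2. Slc4a1, Rhag, Kel, Car1 and Trim10 were at 0 counts in every conditioned library. The part of the lost erythroid transcripts in the values of the other 8 genes was not tested. Markers of other marrow cells moved as well: 12 of 12 macrophage markers were called higher (summed 7156 to 16565 CPM in conditioned, 523 and 495 CPM in control libraries), and 6 of 10 neutrophil precursor markers were called lower (950 to 4503 CPM, against 23745 and 22715 CPM). Of 8 megakaryocyte and platelet markers, 2 were called higher (668 to 2346 CPM summed in conditioned, 65.6 and 74.3 CPM in control libraries). B cell markers were called lower in 6 of 8 cases (43.4 to 362 CPM, against 1016 and 1178 CPM), and T and NK cell markers in 8 of 8 (1.72 to 8.24 CPM, against 81.1 and 87.4 CPM). Beside these marker counts, 19.7% of all genes tested were called lower and 22.5% higher.

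The ubiquitous synthase gene Alas1 (ENSMUSG00000032786, chromosome 9, 106233455 to 106248654, minus strand) had 129.2, 367, 273 and 188 CPM under VpR83, VpR99, VpR126 and VpR2020 medium, against 121 and 162 CPM in control replicates 1 and 2. The VpR83 library lay between the controls and the other conditioned libraries above both. Its log2 fold change was 0.75 ± 0.42 (adjusted p = 0.19), with a 95% interval of -0.26 to 1.77, and 11212 of the 15141 genes tested lay at or below it. Alas1 had the widest spread of the 9 genes among the conditioned libraries, with VpR99 at 2.84 times the level of VpR83. It was also the gene with the lowest ratio of control replicate 1 to control replicate 2, 0.748.

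Within each library, the reads of the 2 synthase genes shifted from a mixture to nearly all Alas1. Alas2 made up 0.0849%, 0.0111%, 0.0310% and 0.0590% of the reads of both genes under VpR83, VpR99, VpR126 and VpR2020 medium, against 53.4% and 24.3% in control replicates 1 and 2. The highest upper bound of the exact 95% binomial intervals was 0.248% in the conditioned libraries, and the intervals were 52.2% to 54.5% and 23.0% to 25.5% in the controls. Per kb of merged exons, Alas2 made up 0.0284% to 0.218% of the summed level of both genes in the conditioned libraries, against 74.6% and 45.1% in the controls.

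The log2 ratio of Alas2 to each other gene within a library needs no scaling between libraries. Its mean was lower in conditioned than in control libraries for all 8 partners, and no ratio overlapped between the groups. All 8 ratios share Alas2, so they restate its fall and are not 8 separate results. Since 23 of the 15141 genes tested had a log2 fold change at or below that of Alas2, nearly any partner would give a lower ratio. How many genes would do so without overlap was not counted. The difference was smallest against Alad, where the log2 ratio was -6.72 ± 0.82 (SD, n = 4) in conditioned and -0.51 ± 0.95 (SD, n = 2) in control libraries, a difference of -6.21. Against Alas1 it was -11.18 ± 1.34 and -0.72 ± 1.30, a difference of -10.46. Against Fech, the gene of the last step, the difference was -8.82. The exact permutation test over 15 assignments of the libraries, two-sided, gave p = 0.133 for each ratio (0.133 adjusted over the 8 ratios), the smallest value that 4 against 2 libraries allow, so this design cannot reach 0.05.

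The genes of the 3 cytosolic enzymes were all called lower. Alad, whose enzyme joins aminolevulinate into porphobilinogen (ENSMUSG00000028393, chromosome 4, 62509169 to 62519918, minus strand), had 12.8, 10.7, 7.98 and 9.40 CPM under VpR83, VpR99, VpR126 and VpR2020 medium, against 124 and 118 CPM in control replicates 1 and 2. The conditioned libraries lay far below the controls, at 8.46% of the control mean. Its log2 fold change was -3.56 ± 0.20 (adjusted p = 0.00023), second only to that of Alas2 among the members. Uros, whose enzyme closes the tetrapyrrole ring (ENSMUSG00000030979, chromosome 7, 133686243 to 133710072, minus strand), had 5.71, 7.62, 6.63 and 7.25 CPM, in the same order of media, against 43.4 and 44.3 CPM in the controls. The groups were apart and both were tight, with a log2 fold change of -2.69 ± 0.17 (adjusted p = 0.00032). Urod, whose enzyme removes carboxyl groups from the side chains of the ring (ENSMUSG00000028684, chromosome 4, 116989965 to 116994413, minus strand), had 40.2, 36.3, 30.5 and 46.9 CPM, against 156 and 120 CPM in the controls. No conditioned library reached the lower control, and 28.0% of the control mean was left (log2 fold change -1.84 ± 0.20, adjusted p = 0.0014).

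The genes of the 3 late mitochondrial enzymes were called lower too, by unequal amounts. Cpox, the coproporphyrinogen oxidase gene (ENSMUSG00000022742, chromosome 16, 58670292 to 58717636, plus strand), had 19.8, 22.7, 13.9 and 17.8 CPM under VpR83, VpR99, VpR126 and VpR2020 medium, against 168 and 139 CPM in control replicates 1 and 2. The conditioned libraries were far below both controls, with 12.1% of the control mean and a log2 fold change of -3.05 ± 0.21 (adjusted p = 0.00042). Ppox, the protoporphyrinogen oxidase gene (ENSMUSG00000062729, chromosome 1, 171275990 to 171281186, minus strand), had 30.2, 28.0, 41.9 and 33.2 CPM, against 114 and 98.2 CPM in the controls. VpR126 gave the highest conditioned value here and the lowest for Alad, Urod, Cpox and Slc25a38, and the log2 fold change of Ppox was -1.67 ± 0.19 (adjusted p = 0.0015). Opposite-strand genes overlap 17.5% of the exonic bases of Ppox (B4galt3), 7.53% of those of Alas1 (4930500F10Rik) and 3.06% of those of Cpox (Gpr15), and their reads cannot be told apart without the strand setting.

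Fech, whose enzyme ferrochelatase inserts the iron (ENSMUSG00000024588, chromosome 18), had 56.2, 43.7, 50.3 and 60.5 CPM under VpR83, VpR99, VpR126 and VpR2020 medium, against 134 and 79.6 CPM in control replicates 1 and 2. The groups were apart, but the controls differed more from each other than the conditioned libraries did. Its log2 fold change was -1.02 ± 0.23 (adjusted p = 0.015), the smallest fall of the 8. Without control replicate 1 the call was lost (log2 fold change -0.60, adjusted p = 0.14, range 0.0018 to 0.14 over the alternatives).

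Slc25a38, whose product is a mitochondrial glycine carrier needed for erythroid haem synthesis (ENSMUSG00000032519, chromosome 9, 120110374 to 120124504, plus strand), had 16.9, 19.6, 15.3 and 15.8 CPM under VpR83, VpR99, VpR126 and VpR2020 medium, against 54.5 and 53.7 CPM in the controls. Both groups were tight and apart (log2 fold change -1.68 ± 0.15, adjusted p = 0.00090). Its fall and that of Ppox were close in size, at 3.20-fold and 3.19-fold. Among all pairs of members, the profiles of Urod and Slc25a38 over the 6 libraries lay closest, with a root mean square distance of 0.25 between centred log2 CPM values.

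**Figure D2:**
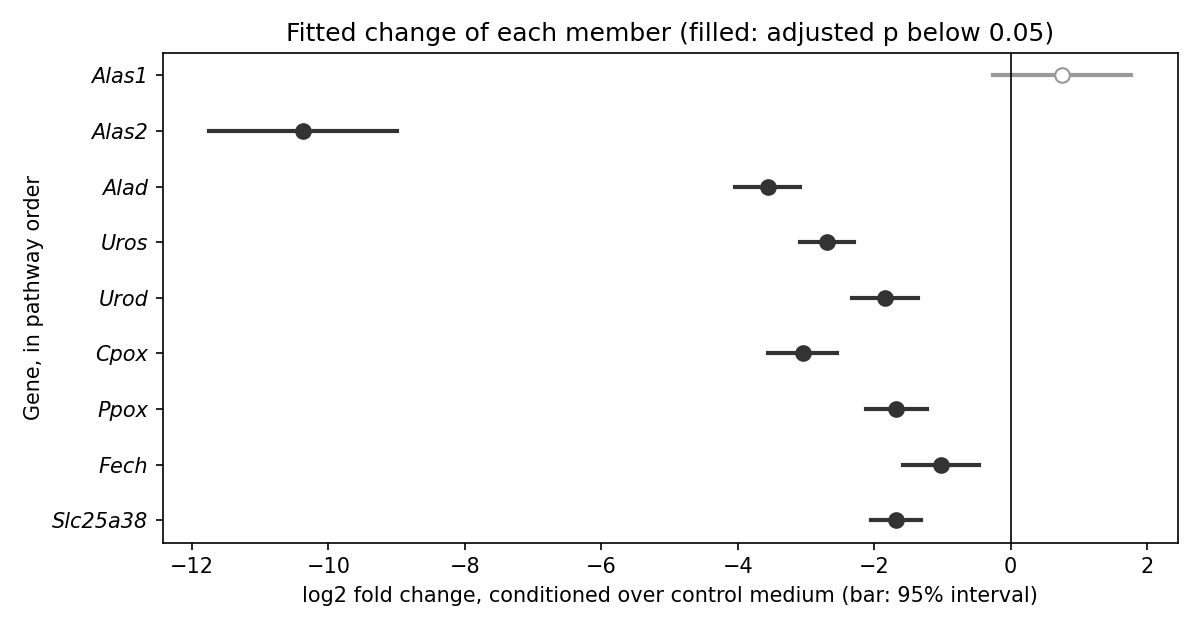
Fitted log2 fold change of each haem synthesis gene, conditioned over control medium, in pathway order from the top, with its 95% interval. Alas2 stands at -10.37, the 7 genes that were also called lower lie between -3.56 and -1.02, and Alas1 at 0.75 has an interval that spans 0.

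The 95% intervals of the 7 genes other than Alas2 that were called lower did not all overlap. The interval of Alad (-4.04 to -3.08) and that of Cpox (-3.55 to -2.55) did not overlap those of Urod (-2.32 to -1.36), Ppox (-2.12 to -1.22), Slc25a38 (-2.04 to -1.31) and Fech (-1.58 to -0.46). That of Uros (-3.08 to -2.29) met both sides, since it overlapped Cpox and Urod. The genes with the larger falls were not grouped by compartment: Alad and Uros encode cytosolic enzymes and Cpox a mitochondrial enzyme. Differences between these genes were not tested.

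The 2 control libraries differed for some members and not for others. The ratio of control replicate 1 to control replicate 2 was 2.67 for Alas2, 1.68 for Fech, 1.30 for Urod, 1.21 for Cpox and 1.16 for Ppox, each with an exact 95% counting interval above 1. For Alad (1.05), Slc25a38 (1.01) and Uros (0.981) the intervals held 1, and for Alas1 (0.748, interval 0.714 to 0.784) the ratio was below it. The summed erythroid markers, 6541 and 3115 CPM, were also higher in replicate 1, but single markers differed unevenly. Hbb-bs had 1981 and 653 CPM and Slc4a1 565 and 241 CPM in control replicates 1 and 2. Car1 (312 and 308 CPM) and Ermap (188 and 180 CPM) were nearly equal. The sum is therefore no measure of how many erythroid cells each control held. Alas2 had both the widest gap between the controls and the deepest fall, whereas Fech had the next widest gap and the smallest fall, and Alad and Uros fell further with nearly equal controls. These intervals cover counting error only.

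Levels can be compared between genes per kb of merged exons. In conditioned medium Alas1 led with 38.7 ± 16.8 CPM per kb (SD, n = 4), followed by Urod with 14.9 ± 2.65, Ppox with 7.37 ± 1.35, Slc25a38 with 6.15 ± 0.703, Alad with 5.47 ± 1.10, Fech with 3.81 ± 0.527, Cpox with 2.79 ± 0.560, Uros with 1.90 ± 0.233 and Alas2 with 0.0359 ± 0.0137 CPM per kb. Ppox, Slc25a38 and Alad overlapped in that order, as did Alad with Fech, Fech with Cpox, and Cpox with Uros. In control medium Alad led with 64.7 ± 2.16 CPM per kb (SD, n = 2), followed by Urod with 53.1 ± 9.88 and Alas2 with 39.7 ± 25.6, whose range overlapped that of Urod and of the next 3 genes. Ppox, Cpox, Alas1 and Slc25a38 followed between 23.5 and 19.7 CPM per kb, of which only Slc25a38 lay outside the range of Ppox and Cpox, and Uros with 12.3 ± 0.167 and Fech with 7.71 ± 2.76 came last.

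The makeup of the pathway differed accordingly. Alas1 held 32.3% to 58.7% of the summed level per kb of the 9 genes in the conditioned libraries, against 6.64% and 11.1% in the controls. Alad held 5.16% to 10.6%, against 22.4% and 26.6%, while the share of Urod was 13.9% to 23.9%, against 19.4% and 20.3%. The summed level was 64.8 to 101.2 CPM per kb in the conditioned libraries, against 295.9 and 237.5 CPM per kb in the controls. With the length of the principal transcript in place of merged exons, the order in conditioned medium was unchanged, and in control medium Alas2 went from the third to the fifth place.

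**Figure D3:**
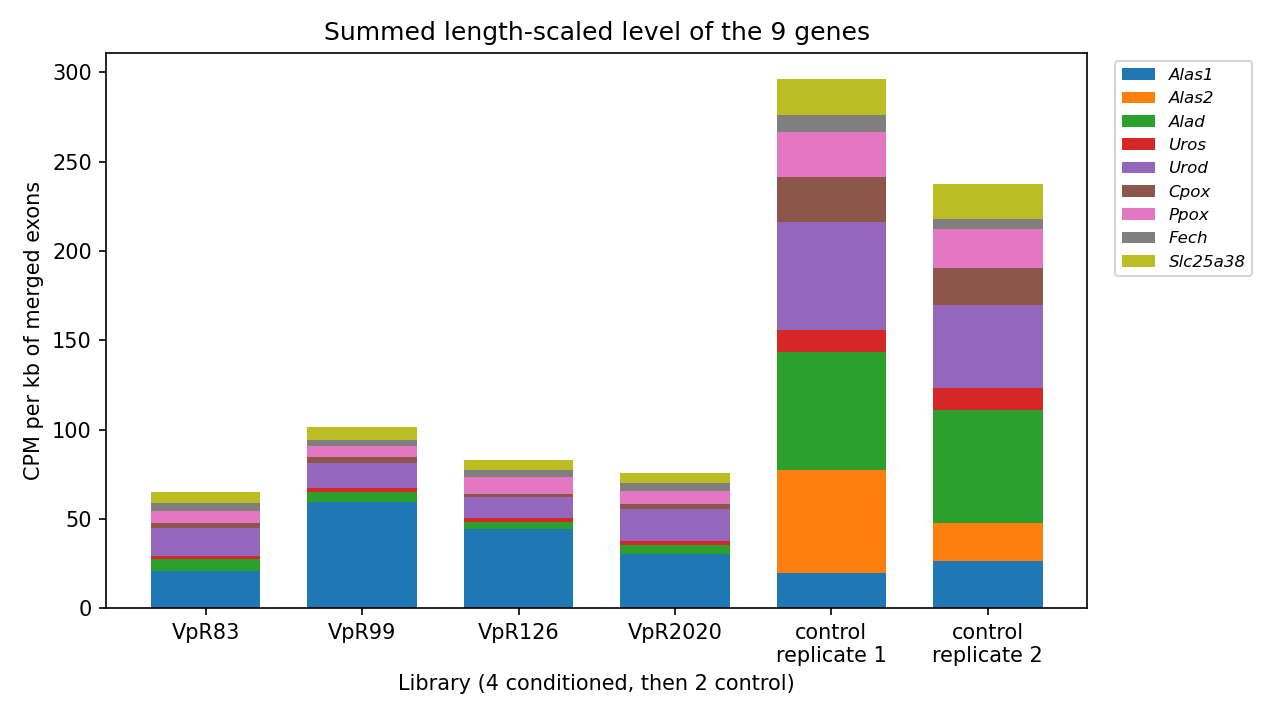
Level of each of the 9 genes in CPM per kb of merged exons, stacked by library, the 4 conditioned libraries first and the 2 control libraries after them. The stacks reach 64.8 to 101.2 in the conditioned libraries and 295.9 and 237.5 in the controls, and Alas1 is the largest block in each conditioned stack.

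Genes that supply the pathway were lower in part. The 22 partner genes covered substrate and iron supply, porphyrin transport, and enzyme and iron-sulphur cluster assembly. Of these, 10 were called lower, 1 higher and 11 were not called, with a median log2 fold change of -0.66. The shares over all genes tested were 19.7% lower and 22.5% higher. Abcb10, a mitochondrial transporter gene of erythroid cells, had 33.2, 31.7, 21.2 and 25.7 CPM under VpR83, VpR99, VpR126 and VpR2020 medium, against 143 and 116 CPM in control replicates 1 and 2. The groups were apart, with a log2 fold change of -2.21 ± 0.21 (adjusted p = 0.0010). Abcb6, a porphyrin transporter gene of low level, had 0.221 to 0.422 CPM in conditioned and 1.53 and 1.41 CPM in control libraries (log2 fold change -2.29 ± 0.37, adjusted p = 0.0046). Without control replicate 1 Abcb6 was not called (adjusted p = 0.051, range 9.3e-05 to 0.051).

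Genes of haem export, uptake and breakdown were mostly higher. Of 10 tested, 6 were called higher, 1 lower and 3 were not called, with a median log2 fold change of 1.14. Over all genes tested, 22.5% were called higher and 19.7% lower. Hmox1, the inducible haem oxygenase gene, had 515, 576, 417 and 371 CPM under VpR83, VpR99, VpR126 and VpR2020 medium, against 123 and 121 CPM in control replicates 1 and 2. Every conditioned library exceeded both controls, with a log2 fold change of 1.95 ± 0.23 (adjusted p = 0.0018). Blvra, the gene of biliverdin reductase A, which acts after haem oxygenase, and Lrp1, a receptor gene for haem bound to haemopexin among many ligands, rose by 1.60 ± 0.23 and 4.46 ± 0.54 on the log2 scale (adjusted p = 0.0032 and 0.0019). The fall was that of Abcg2, a transporter gene with porphyrins among its substrates, at 8.55 to 13.0 CPM in conditioned and 37.5 and 28.8 CPM in control libraries (-1.60 ± 0.22, adjusted p = 0.0027). Flvcr2 and Hpx were filtered out for low counts.

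Regulators of haem synthesis were called lower more often than higher. Of 20 tested, 10 were called lower, 3 higher and 7 were not called, with a median log2 fold change of -0.88. Among all genes tested, 19.7% were called lower and 22.5% higher. The erythroid transcription factor gene Klf1 had 0.146, 0.0892, 0.0422 and 0.166 CPM under VpR83, VpR99, VpR126 and VpR2020 medium, against 76.2 and 87.3 CPM in control replicates 1 and 2. It was close to absent in every conditioned library (-9.59 ± 0.33, adjusted p = 5.6e-05). Tfr2, an iron-sensing receptor gene of liver and erythroid cells, changed by -5.46 ± 0.35 (adjusted p = 0.00034). Epor, the erythropoietin receptor gene, had 0.0732, 0.162, 4.27 and 1.88 CPM, in the same order of media, against 41.7 and 45.0 CPM in the controls. VpR126 and VpR2020 retained more of it than VpR83 and VpR99 (-4.84 ± 1.28, adjusted p = 0.025). The Epor call was lost without control replicate 1 or 2, without VpR2020 or without the low-count filter (adjusted p = 0.096, 0.098, 0.058 and 0.11, range 0.0064 to 0.11), and without VpR126 its log2 fold change was -6.30.

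Gata1, chosen here after its values were seen because its product binds the Alas2 gene, had 0, 0.413, 10.6 and 0.498 CPM under VpR83, VpR99, VpR126 and VpR2020 medium, against 77.5 and 77.8 CPM in control replicates 1 and 2. All conditioned libraries lay below both controls, with VpR126 well above the others, and the gene was not called (-4.79 ± 1.61, adjusted p = 0.053). Alas2 in that VpR126 library was 0.0845 CPM, within the range of the other conditioned libraries. The 3 rises were those of Bach1, a haem-sensing repressor gene, and of Aco1 and Ireb2, which encode the iron regulatory proteins that bind the messenger RNA of Alas2. Their log2 fold changes were 1.57 ± 0.20, 1.30 ± 0.17 and 0.73 ± 0.12 (adjusted p = 0.0022, 0.0021 and 0.0052), and Ireb2 was not called without control replicate 1 (adjusted p = 0.068, range 2.5e-07 to 0.068).

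Haem-carrying and associated proteins outside red cells gave no common direction. Of 19 genes tested, 7 were called higher, 5 lower and 7 were not called, with a median log2 fold change of 0.49. The shares among all genes tested were 22.5% higher and 19.7% lower. The list also holds Sqle, Por and Ncf1, whose products carry no haem. The largest called rises were Cyp51 and Sqle, both of sterol synthesis, and Ptgs1, the cyclooxygenase 1 gene, with log2 fold changes of 3.07 ± 0.33, 2.83 ± 0.32 and 2.30 ± 0.41 (adjusted p = 0.0014, 0.0015 and 0.0070). Ptgs1 was not called without control replicate 1 or 2 (adjusted p = 0.063 and 0.063, range 3.1e-07 to 0.063). The largest called falls were Epx, the eosinophil peroxidase gene, Ptgs2, the cyclooxygenase 2 gene, and Mpo, the neutrophil peroxidase gene, with log2 fold changes of -3.15 ± 0.84, -2.98 ± 0.83 and -2.44 ± 0.80 (adjusted p = 0.025, 0.029 and 0.048). Without control replicate 1, Epx and Ptgs2 stood at -1.61 and -0.69 and were not called (adjusted p = 0.26 and 0.51, ranges 0.00045 to 0.26 and 0.00071 to 0.51). Both calls were also lost without the low-count filter (adjusted p = 0.097 and 0.12) or without VpR2020 (0.062 and 0.065), and that of Ptgs2 without VpR83 (0.062) or VpR126 (0.055). The Mpo call was lost without the low-count filter and whichever library was left out except VpR99, without which it stood at -3.48 (adjusted p range 0.0018 to 0.18).

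Mitochondrial content genes gave a backdrop for the mitochondrial members. Their median log2 fold change was -0.07, and 14 of the 16 tested were not called by edgeR. Called higher were 0 and lower 2, beside 22.5% and 19.7% of all genes tested. The 2 were Tfam, a mitochondrial DNA-binding factor gene (-0.61 ± 0.14, adjusted p = 0.014), and Mdh2, the mitochondrial malate dehydrogenase gene (-0.67 ± 0.22, adjusted p = 0.045). Both calls were lost without control replicate 1 or 2 or without the low-count filter, and that of Mdh2 also without VpR83, VpR126 or VpR2020 (adjusted p range 0.00034 to 0.12 for Tfam and 0.015 to 0.21 for Mdh2). The fitted log2 fold changes of Alas2, Cpox, Ppox and Slc25a38 were lower than those of Tfam and Mdh2, and that of Alas1 was higher (0.75). That of Fech was lower than both with all libraries but not without control replicate 1 (Fech -0.60, Tfam -0.64, Mdh2 -0.71). Differences between these genes were not tested.

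**Figure D4:**
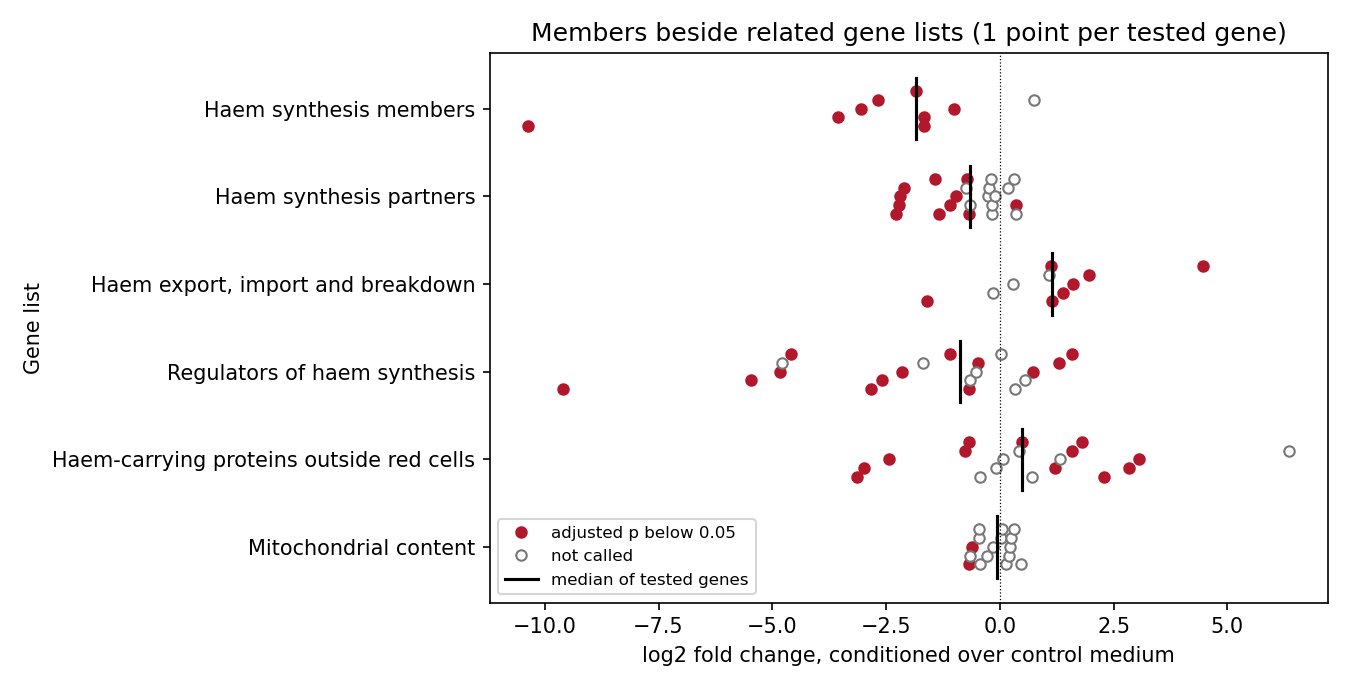
Log2 fold change, conditioned over control medium, of every tested gene in the haem synthesis group and 5 related lists, filled where the adjusted p was below 0.05, with a black bar at the median of each list. Medians run from -1.84 for the 9 haem synthesis genes to 1.14 for haem export, import and breakdown, and that of mitochondrial content is -0.07.

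The genes most like Alas2 over the 6 libraries, by the root mean square distance between centred log2 CPM profiles, were Add2, Tspo2, Trim10, Ermap and Slc25a21, at distances of 0.39 to 0.54. A prior count of 2 was added before taking logs. Genes with few or no conditioned reads therefore lie near a common floor there, which in part sets this likeness. Add2, a gene of the red cell membrane skeleton, had 4 reads in the conditioned libraries together, and 61.0 and 55.7 CPM in control replicates 1 and 2. Tspo2, Trim10 and Slc25a21 were without a read under any conditioned medium. Against a floor of 3 counts over the group they were at least 2509-fold, 3390-fold and 1332-fold lower. In control replicates 1 and 2 they had 43.8 and 32.6, 64.1 and 37.1, and 21.7 and 19.5 CPM. These controls lay closer together than those of Alas2, at 139 and 52.0 CPM. The genes most like Alas1 were 1600014C10Rik, Ttpa, Gda, Bace1 and Bcas1, at distances of 0.12 to 0.23, and none of these was called by edgeR's test (adjusted p = 0.059 to 0.47). Bace1 was called higher by DESeq2 (adjusted p = 0.031), and without VpR83 edgeR called Bace1 and 1600014C10Rik higher (adjusted p = 0.034 and 0.031; ranges 0.031 to 0.23 and 0.031 to 0.47). Like Alas1, all 5 had their highest value under VpR99 medium, which their choice by profile over these same libraries favours.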

How the data were processed

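The authors deposited raw read counts per Ensembl gene, not normalized, from libraries of a stranded Illumina TruSeq kit on total RNA, per the labels. The submitters' processing notes name Trimmomatic 0.38, STAR 2.5.2b and GRCm38. How reads were counted, with which annotation and strand setting, is not given in the sources used here. Symbols, coordinates and exon lengths came from GENCODE M21 (GRCm38), which matched 45143 of 45706 rows. Total counts were 18629708 to 28055913 in 5 libraries and 129120559 in VpR99. No library pair agreed within sampling noise (lowest chi-square per degree of freedom 27.9, the control pair).

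Counts were fitted in R 4.3.3 with edgeR 4.0.16 (filterByExpr, TMM, robust quasi-likelihood test of group, two-sided, Benjamini-Hochberg adjustment over 15141 genes) and tested on simulated data. SE was taken as the size of the log2 fold change over the root of F. DESeq2 1.42.0 was an alternative. Ratios used 0.5 added counts, and intervals cover counting error only. The members and lists were chosen with earlier results of these data known. The named genes were all members, the 3 largest called rises and falls of each list, and the 5 nearest profiles of Alas2 and Alas1, except that some genes of the partner list are not reported here. A comparison of the ALAS1 and ALAS2 proteins was planned and not made. The members do not cover every step of the pathway, and other steps are not analysed here.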

Additional observations from a re-analysis of the deposited data

Results flagged for a closer look

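Among the conditioned libraries, Mpo, the neutrophil peroxidase gene, stood at 830.7 CPM under VpR99 medium, apart from 96.4 to 203 CPM under the other media. Its gap to the next library took 0.855 of the range of the 4 libraries, above Dixon's 95% critical value for 4 samples. Other neutrophil precursor markers were also highest under VpR99 medium among the conditioned libraries: Elane had 587 CPM there and 76.4 to 109 CPM under the other media, Prtn3 658 and 164 to 175 CPM, Ctsg 305 and 30.7 to 49.6 CPM, and Ms4a3 148 and 12.8 to 17.7 CPM. Camp and Ltf were not. These markers were looked at after their values were seen, and were not among the genes given Dixon's test. No haem synthesis gene passed the critical value. The test was made on 31 genes, the 9 members among them, and chance flags about 1 in 20 groups.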

How the results depend on the processing

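Under 11 alternatives to the fit (other scalings, no low-count filter, DESeq2, each library left out), 8 members were called lower and 0 higher, except that 7 were called lower without control replicate 1, where Fech was lost. No member changed sign. Upper-quartile scaling and library totals shifted the median over all genes tested to -0.22 and -0.26 (log2), and Alas1 then stood at 0.54 and 0.50. Leaving out a library gave 918 to 3374 genes called lower and 1283 to 3657 higher over all genes tested, beside 2983 and 3410 with all libraries. With 1 control left, it is taken to vary as the conditioned libraries do. The log2 ratio of Alas2 to the other members, conditioned minus control, ranged over all settings from -11.38 to -5.40, and adding 3 counts in place of 0.5 gave -9.63 against Alas1 and -5.40 against Alad. No paired analysis was possible because the labels give replicate numbers to the controls alone. The 12 conditioned reads of Alas2 limit the precision of its level.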
